A study of Mus musculus with 2 samples.

Results

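The genes described here are 7 genes of the erythroid programme: the transcription factors Klf1, Gata1 and Nfe2, the erythropoietin receptor Epor, the heme synthesis enzyme Alas2 and the membrane proteins Rhag and Ermap. They were chosen by name, each was found by its Entrez gene number in the deposited table, and they are 7 of the 24675 features that carry a gene symbol. Expression was read with the Affymetrix Mouse Gene 2.0 ST array in tissue cut by laser from C57Bl/6 mouse embryos at embryonic day 10.5, with no treatment named in the labels. The dorsal group is the tissue above the aorta, up to the notochord, and the ventral group is the tissue under the vessel, taken from the same embryos. The sources used here do not say how many embryos there were. Each group is 1 array, given in both cases as biological replicate 4, so no value below has a replicate error and no difference has a test or a p-value. Later stages named in the series design were not analysed here.

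Red cells of the mouse embryo at this age are mostly primitive erythrocytes made in the yolk sac, which circulate with their nuclei and finish maturing in the bloodstream. GATA1 and KLF1 switch on most genes of the red cell programme, and NF-E2, of which Nfe2 encodes the larger subunit, acts with them at the globin loci. Erythropoietin signals through its receptor to keep erythroid precursors alive, ALAS2 catalyses the first step of heme synthesis in erythroid cells, and RHAG and ERMAP sit in the red cell membrane. A piece of tissue cut from beside the aorta can hold such cells in vessels or in spilled blood. In bulk tissue of this kind, fewer cells of a type and less RNA per cell cannot be told apart.

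The members share a known mode of control that the choice of genes did not use, so the sequences before their start sites are shown first. RefSeq promoter entries of the GRCm38.p6 build were found for 6 of the 7 genes and not for Nfe2, and the 250 bases before each start site were searched on both strands for 3 motifs. These were GATAA, the core bound by GATA factors, CCNCNCCC, the CACCC-type element bound by KLF1, and TGAGTCA, the core of the NF-E2 element, which AP-1 factors also bind. GATAA was found in 5 of the 6 windows, and in 22.6% of all 32841 promoter windows of that length. In each of these 5 it occurred a single time, and on the strand opposite to the gene, so that it reads TTATC below. The stretches around the match are given in the direction of the gene, with the matched letters in capitals.
Klf1, chr8:84901872-84901936, plus strand: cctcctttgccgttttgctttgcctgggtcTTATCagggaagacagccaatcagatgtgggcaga
Epor, chr9:21963596-21963660, minus strand: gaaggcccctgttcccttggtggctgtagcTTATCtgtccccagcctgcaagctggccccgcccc
Alas2, chrX:150547301-150547365, plus strand: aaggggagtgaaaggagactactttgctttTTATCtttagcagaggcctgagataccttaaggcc
Rhag, chr17:40811088-40811148, plus strand: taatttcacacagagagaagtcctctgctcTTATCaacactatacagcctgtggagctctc
Ermap, chr4:119190028-119190092, minus strand: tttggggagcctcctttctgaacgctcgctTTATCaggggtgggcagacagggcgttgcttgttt
Gata1, chrX:7967911-7967974, minus strand: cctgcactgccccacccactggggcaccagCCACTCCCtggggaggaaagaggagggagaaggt

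The GATAA match began 31 bases before the start site in Rhag, 54 in Epor, 67 in Ermap, 80 in Klf1 and 86 in Alas2. The Gata1 window held no GATAA and is shown around its CCNCNCCC match nearest the start site, which began 34 bases before it. CCNCNCCC was found in 3 of the 6 windows, those of Gata1, Epor and Alas2, and in 45.9% of all windows. Its matches overlapped one another in Epor and Alas2, and no match overlapped a GATAA match. The letters TGAGTCA were found in none of the 6 windows and in 4.46% of all windows. A match is a description of these letters and not a site in use.

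On the arrays, signal over background was judged against 1360 olfactory and vomeronasal receptor genes, which these tissues are not thought to transcribe. Their 95th percentile over both arrays was 3.92 on the log2 scale and their 99th was 5.48. A level under the first is called background here, and a level between the 2 marks is less certain. Of the 7 genes, Klf1 lay above the 95th percentile on both arrays, Alas2 lay above it in ventral tissue, and the other 5 were at background on both. The share of all genes above that mark was 19.3% for both arrays and 28.7% for at least 1 array. None of the 7 exceeded the 99th percentile, which 10.7% of all genes did on at least 1 array.

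**Figure D1:**
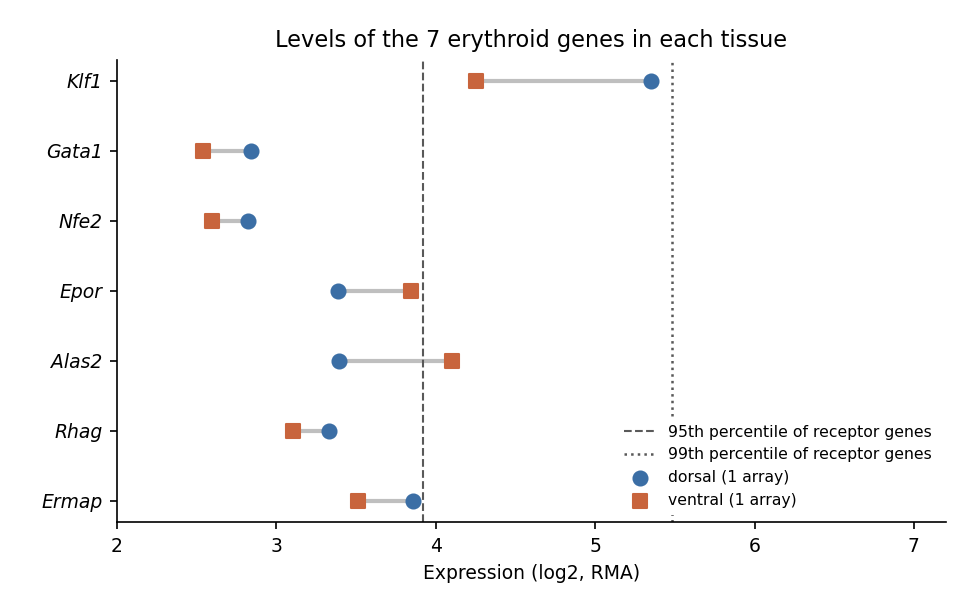
Expression of the 7 genes (rows) on the log2 scale, with 1 array for dorsal (circles) and 1 for ventral tissue (squares), and no error bars because each tissue has 1 array. The dashed and dotted lines are the 95th and 99th percentiles of the receptor genes, 3.92 and 5.48, and Klf1 is the gene with both points between them.

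Among the transcription factors, Klf1 (Entrez gene 16596), the Krüppel-like factor that drives adult globin and red cell membrane genes, had a dorsal level of 5.35 and a ventral level of 4.25. The dorsal array was the higher by 1.10 on the log2 scale, or 2.14-fold, with the ventral value 0.33 above the background mark. A dorsal excess of 2-fold or more was found in 1 of the 7 genes, Klf1, and a ventral excess of that size in none. For comparison, genes were kept if the higher of their 2 values reached 3.10, the median level of all genes. Of the 13982 kept genes, 5 of the 7 among them, 4.88% had a dorsal excess of 2-fold or more and 9.44% a ventral one. Of all genes above the mark on both arrays, as Klf1 was, 6.65% had a dorsal excess of that size. Among those kept, 545 genes, Klf1 included, had a dorsal excess at least as great as that of Klf1. The median difference of the kept genes, ventral minus dorsal, was -0.12, and relative to it Klf1 differed by -0.98, which is under 2-fold. With all differences centred in this way, 3.77% of kept genes and 0 of the 7 had a dorsal excess of 2-fold or more.

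Gata1 (Entrez gene 14460), which encodes the zinc finger factor required for red cell and megakaryocyte maturation, had levels of 2.84 (dorsal) and 2.54 (ventral). Nfe2 (Entrez gene 18022) stood at 2.82 and 2.60. Both genes were at background on both arrays, more than 1 log2 unit below the mark, and neither reached the floor of the comparison. No fold is given for them, and a difference between the tissues in these factors was not detectable at this signal.

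Epor (Entrez gene 13857), the receptor through which erythropoietin acts, had a dorsal level of 3.39 and a ventral level of 3.85. Its ventral value was the higher by 0.46 and lay 0.07 below the mark, so it counts as background here on both arrays. With the mark set within each array the ventral mark was 3.83, and Epor then lay above it. Alas2 (Entrez gene 11656), the erythroid form of the enzyme that makes aminolevulinic acid, had a dorsal level of 3.40, under the mark, and a ventral level of 4.10, which was 0.18 above it. The deposited values differed by 0.71. With the dorsal value under the mark, the fold is a bound, of at least 1.14, and its full size is not known.

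Of the membrane genes, Rhag (Entrez gene 19743), which encodes the ammonium channel at the core of the Rh complex, had levels of 3.33 (dorsal) and 3.11 (ventral). Ermap (Entrez gene 27028), which encodes an erythroid adhesion protein related to the butyrophilins and carries the Scianna blood group, was measured at 3.86 and 3.51. Both genes were at background on both arrays, Ermap by 0.06 in dorsal tissue. Ermap lay above the mark in dorsal tissue when the mark was taken from 73 taste receptor, trace amine receptor and cornified envelope genes, at 3.85.

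Of the 7 genes, Klf1 alone was above background in both tissues, so a direction can be read with a measured fold for that gene only. In the deposited values, background included, Klf1, Gata1, Nfe2, Rhag and Ermap had the higher value in dorsal tissue and Epor and Alas2 in ventral tissue, which makes 5 of 7 beside 63.3% of all genes. Differences ran from -1.10 in Klf1 to 0.71 in Alas2, with a median of -0.22 over the 7, beside -0.11 over all 24675 genes. The sign of each difference was the same after quantile normalization of the 2 columns, after centring on the kept genes and after a loess on level. Over these scalings and the deposited values Klf1 ranged from -1.27 to -0.98 and Alas2 from 0.71 to 0.83, while Rhag came as close to 0 as -0.08 and Nfe2 as -0.07.

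**Figure D2:**
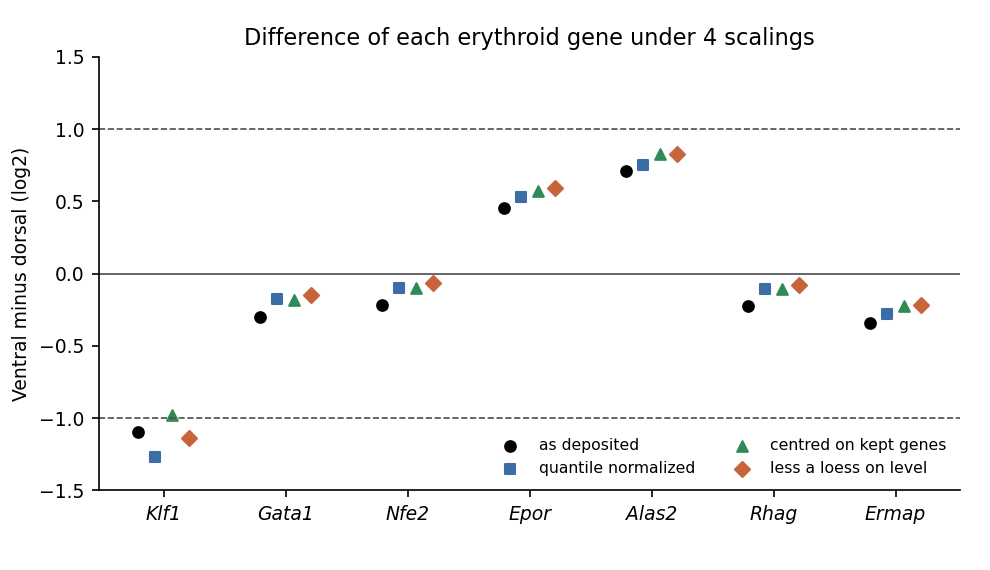
Ventral minus dorsal difference on the log2 scale for each of the 7 genes under 4 scalings of the 2 arrays (symbols), with dashed lines at a 2-fold difference. Klf1 lies past the lower dashed line except when centred on the kept genes, at -0.98, and the other 6 genes lie between the dashed lines under each scaling.

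The globin genes, the most abundant products of the same cells, gave strong signal on both arrays. Of 6 measured globin genes, 4 were far above both marks: Hba-x, the embryonic zeta chain, with a dorsal level of 12.11 and a ventral level of 11.81, and Hbb-y, Hbb-bh1 and Hbb-bt within 0.16 of the same level on both. Hbb-bs, an adult beta chain, was above the background mark in ventral tissue alone, with a dorsal level of 3.16 and a ventral level of 4.16, a bound of at least 1.18-fold. Hbb-bt is also an adult beta chain, and was at 10.11 in dorsal and 10.27 in ventral tissue. Hba-x and Hbb-y are embryonic chains carried by primitive red cells, and globin probes may read near-identical copies. The summed level of the globin list was 13.61 in dorsal and 13.53 in ventral tissue. Klf1 differed by 2.14-fold between arrays on which the summed globin level differed by -0.07, ventral minus dorsal on the log2 scale, and no test of that contrast was possible with 1 array per tissue.

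**Figure D3:**
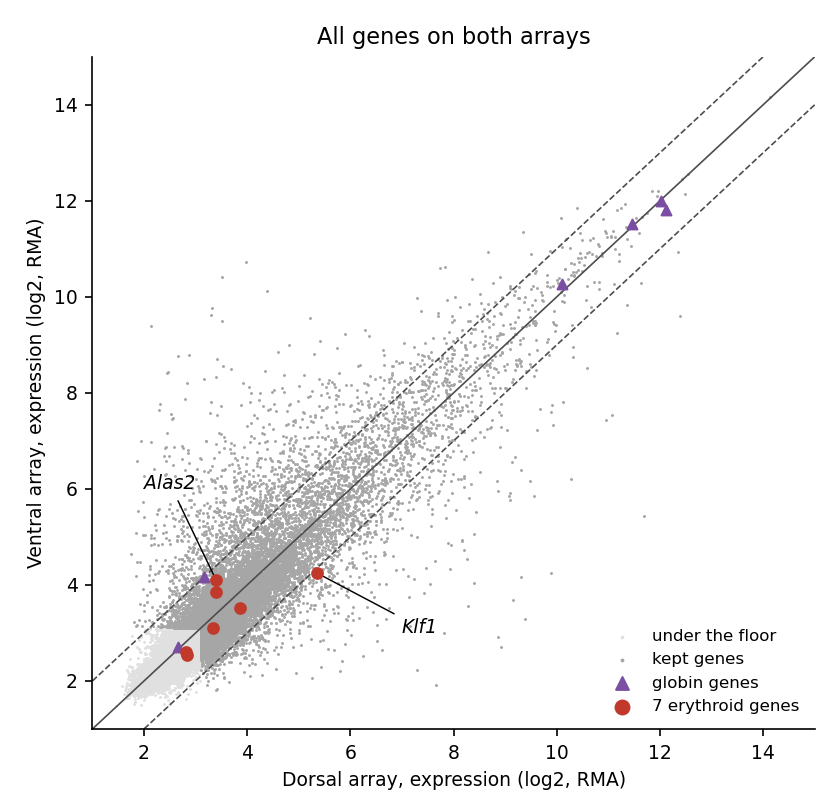
Dorsal (x) against ventral (y) expression on the log2 scale for all genes with a symbol, in dark grey for the kept genes and light grey for those under the floor of 3.10. The solid line marks equal levels and the dashed lines a 2-fold difference: Klf1 lies just past the lower dashed line, the other 6 erythroid genes (red) lie between the lines near background, and 4 globin genes (triangles) lie at the upper end near equality.

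Other transcription factors and cofactors of the erythroid programme included 15 kept genes of 17, of which 1 had a dorsal excess of 2-fold or more and none a ventral one. That gene was Tcf3, which encodes the E proteins that pair with the blood factor TAL1, at 5.45 in dorsal and 4.26 in ventral tissue, or 2.27-fold. Klf3, a repressor of the same family as KLF1, was measured at 6.92 and 6.09, and Ldb1, the bridging cofactor of the GATA1 and TAL1 complex, at 9.61 and 8.88. Neither reached 2-fold as deposited, while Klf3 did after quantile normalization, at -1.14, and after a loess on level, at -1.01. These 3 genes are widely expressed and do not mark red cells. The median difference of the list was -0.32, beside -0.12 for all kept genes. Of the partners that are specific to blood, Tal1 (dorsal 3.73, ventral 3.70), Lmo2 (3.38, 3.31) and Zfpm1 (3.50, 3.27) were at background. Zfpm1 encodes the GATA1 cofactor FOG1. Gfi1b, another blood factor of the list, was not: its dorsal level was 4.66 and its ventral level 5.28, both above the mark. Its ventral value was the higher by 0.62, under 2-fold and opposite in direction to Klf1.

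The pathway of the erythropoietin receptor held 10 kept genes of 12 measured, none of them at least 2-fold apart, with a median difference of -0.12. Epo, the hormone itself, was at background in both tissues, at 3.55 in dorsal and 3.15 in ventral tissue. Stat5a, a transcription factor activated by the receptor, was measured at 3.58 and 4.12, so that it was above the mark in ventral tissue, as Alas2 was. Erfe, the iron-regulating hormone erythroferrone that erythroblasts release after stimulation, was measured at 4.76 and 4.10. Ptpn6, a phosphatase that dampens receptor signalling, was measured at 4.29 and 3.95. The kinase Jak2, which the receptor uses, was at background in both tissues, at 2.73 and 3.34.

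Genes of heme synthesis and its iron supply included 20 kept genes of 22 measured, with a dorsal excess of 2-fold or more in 1 gene and a ventral one in none. The exception was Slc25a39, a mitochondrial carrier of glutathione, at 6.40 in dorsal and 3.85 in ventral tissue, a difference of at least 5.57-fold. The list had a median difference of 0.02 and a mean of -0.07. Alas1, the housekeeping counterpart of Alas2, was at background in both tissues, at 3.60 and 3.58. Alad, Urod, Cpox and Fech, which encode later enzymes of the heme pathway in all cells, were above the mark on both arrays and within 2-fold. Uros (dorsal 3.72, ventral 3.58) and Ppox (dorsal 3.22, ventral 2.67), also later enzymes of this pathway, lay under the mark on both. So did 12 of the 22 measured genes of the list, these included, beside 17583 of all 24675 genes. Fth1, the heavy chain of ferritin, had levels of 7.43 (dorsal) and 8.19 (ventral), and Hmox1, the enzyme that breaks heme down, at 3.22 and 3.97. Fth1 has many processed copies in the genome, so its value is uncertain. Slc25a37, the mitoferrin that brings iron into erythroid mitochondria, was at 7.26 on both arrays.

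Red cell membrane genes included 17 kept genes of 21 measured, with a dorsal excess of 2-fold or more in 1 gene, a ventral one in none, and a median difference of -0.10. The 1 gene was Cd24a, a surface glycoprotein that erythroblasts share with neural and epithelial precursors, at 9.56 in dorsal and 8.36 in ventral tissue, or 2.30-fold. Slc4a1, which encodes band 3, the anion exchanger that RHAG associates with in the membrane, was above the mark on both arrays and close to equal, at 4.15 and 4.29. Most of the list was not: 14 of the 21 measured genes were at background on both arrays, Sptb, Ank1 and Epb42 among them. Of all 24675 genes 17583 were at background on both, so the list was not set apart by this count. Add1, a ubiquitous adducin of the membrane skeleton, was measured at 4.70 and 5.46. Rhd, the nearest relative of Rhag among red cell genes, was at 3.94 and 3.32, which puts it just above the mark in dorsal tissue, and the other relatives Rhbg and Rhcg were at background. All 5 measured relatives of Ermap in the butyrophilin family, Mog included, were at background on both arrays.

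**Figure D4:**
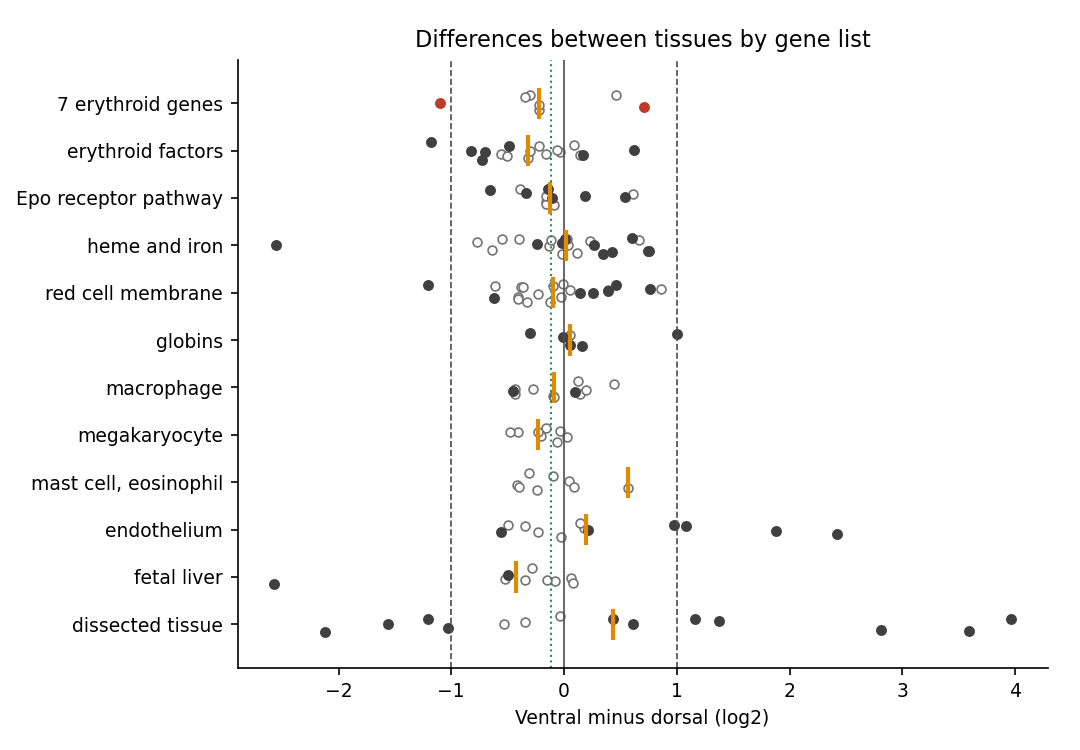
Ventral minus dorsal difference on the log2 scale (x) for each measured gene of 12 lists (rows), filled where the gene lay above the background mark in either tissue and open where it did not. Orange bars are medians of the kept genes of each list, dashed lines mark 2-fold and the dotted green line is the median of all kept genes, -0.12: apart from Klf1, Tcf3, Slc25a39 and Cd24a, the genes of the first 5 lists lie within 2-fold.

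Markers of other cells that could carry these transcripts were set beside the results. GATA1 and NF-E2 also act in megakaryocytes, and GATA1 in mast cells and eosinophils. Of all 24675 genes 17583 were at background on both arrays. All 8 measured megakaryocyte genes and all 8 measured mast cell and eosinophil genes were at background on both arrays. Their summed levels, 6.14 in dorsal and 5.94 in ventral tissue for the first list and 5.63 and 5.57 for the second, add background values only and carry no information on these cells. Of 11 measured macrophage genes 9 lay under the mark in both tissues. The exceptions were C1qb, a complement subunit, at 3.90 and 4.00, and Cx3cr1, the fractalkine receptor, which was above the receptor genes' 99th percentile in both tissues, at 6.07 and 5.62. The summed level was 7.26 and 7.06, and 6.43 and 6.39 without Cx3cr1.

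The labelled tissues were checked against their own markers. Wt1 and Tcf21, factors of the coelomic lining and visceral mesenchyme, were at least 6.45-fold and 5.52-fold higher in ventral tissue, and Pax9, a sclerotome factor, was 4.35-fold higher in dorsal tissue. Of 12 endothelial genes 3 had a ventral excess of 2-fold or more, Cdh5, the endothelial cadherin, by 5.34-fold, while 5 had the lower value in ventral tissue, among them Eng, a TGF-beta co-receptor, at 4.09 and 3.53. The median difference of the kept endothelial genes was 0.20. The summed level of all 12 was 7.23 in dorsal and 8.13 in ventral tissue, and 7.03 and 7.49 without Cdh5. Of the 9 measured fetal liver genes 7 were at background on both arrays, Alb and Afp among them, beside 17583 of all 24675 genes. Ttr was 5.93-fold higher in dorsal tissue. The summed level of the liver list was 7.59 and 6.38, and 6.22 and 5.99 for the other 8 genes without Ttr. The part of these tissue differences in the values of Klf1, Epor and Alas2 was not tested.

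Likeness of pattern was measured as the Euclidean distance between genes over the 2 arrays, for the 2 members above background. The named genes nearest to Klf1 were Kansl3, a subunit of a histone acetyltransferase complex, at 5.35 and 4.23, and R3hcc1, at 5.34 and 4.23. Those nearest to Alas2 were Bicc1, an RNA-binding protein, at 3.39 and 4.09, and Nrp1, a receptor for semaphorins and vascular growth factor, at 3.40 and 4.12. Within a distance of 0.1 lay 9 genes for Klf1 and 23 for Alas2. None of the 4 nearest genes belongs to the erythroid lists. Over 2 arrays this measure holds no more than a level and a difference, and the level also depends on the probes.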

How the data were processed

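RNA from laser-cut tissue was amplified from 200 to 1000 pg by a single-primer isothermal method, per the labels' protocols. From so little RNA, single transcripts may be missed or amplified unevenly by chance. The values are log2 expression, 1 per gene and array, as deposited by the authors. Affymetrix Expression Console and RMA are named, without versions, per the submitters' processing notes. RMA subtracts background, equalises the probe distributions of the arrays and fits 1 value per gene by median polish. The sources used here do not give the probe annotation, its genome build or the arrays that were normalized together. No probe-level values or detection calls were used.

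The table held 25429 features named by Entrez gene number. The platform annotation gave 1 symbol for 24675 and none for 754, which were left out. No symbol was on more than 1 feature, and all symbols matched a GRCm38.p6 gene table. Arrays were assigned to tissues by title. The comparison was ventral minus dorsal on the log2 scale, and genes at least 2-fold apart were counted by size, with no test. Kept genes reached 3.10, the median of the genes' 2-array means, on at least 1 array. A fold with its lower value under the 95th percentile of the receptor genes is a bound, the higher value against that percentile, and where both values are under it no fold is given. A summed level is the log2 of the sum of a list's linear values, and giving it without the list's brightest gene was chosen after seeing the data.

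The members and lists were chosen with earlier results of these data known. The genes named were the 7 members; up to 3 genes of each list with the greatest differences among those above background; each list gene at least 2-fold apart; Alas1, Rhd and Epo; and the nearest patterns, leaving out predicted genes. Not all genes that the rule gave are printed. Tal1, Lmo2, Zfpm1, Gfi1b, Jak2, Alad, Urod, Cpox, Fech, Uros, Ppox, Slc25a37, Slc4a1, Sptb, Ank1, Epb42, Rhbg, Rhcg, Mog, Hbb-y, Hbb-bh1, Alb, Afp and Eng were named in addition, after their values were seen. Alternatives were centring, quantile normalization, a loess on level (span 0.3, fitted on kept genes whose mean reached the floor), other floors, fold thresholds and background marks, and means for medians. Python 3.11.15, numpy 2.4.6, pandas 2.3.3, statsmodels 0.14.6 and matplotlib 3.10.9 were used.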

Additional observations from a re-analysis of the deposited data

How the results depend on the processing

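With 1 array per tissue no array could be left out. No paired analysis was possible because there is 1 pair of arrays, which leaves no spread to test against. Klf1 was at -0.98, under 2-fold, with the differences centred on the median of the kept genes, and the count of members at least 2-fold higher in dorsal tissue went from 1 to 0. That count was also 0 at a 3-fold threshold, and at 1.5-fold 1 member, Alas2, was higher in ventral tissue, by the construction of the thresholds. Alas2 was counted there by its deposited difference. Its dorsal value lay under the background mark, and its fold given as a bound is under 1.5. The kept genes moved in the same way. In both directions a greater share of them passed at 1.5-fold than at 2-fold, and a smaller share at 3-fold. The count of members above background on at least 1 array was 2, became 0 at the receptor genes' 99th percentile, and was 3 with the mark set within each array or taken from other silent genes. The median difference of the Rh relatives went from -0.62 in 1 kept gene to -0.34 with no floor, which brought in 2 genes. Medians of the other 5 lists moved by less than 0.1 under each alternative run on them. Signal near background and the number of arrays limit all 7 genes.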
